A study of Mus musculus with 8 samples.

Results

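The mitochondrial genome transcripts described here are the rows of the deposited gene table whose name starts with mt-. The rule found 13 genes of 34745, and these are the 13 protein-coding genes of the mouse mitochondrial genome. The annotation used for positions (GENCODE M21, build mm10) holds 37 mitochondrial genes, and its 2 ribosomal RNA genes and 22 transfer RNA genes were not analysed here. RNA was taken from primary hepatocytes of male mice with the genotype WT. The mice had received adeno-associated virus 8 at 6 weeks of age, and cells were isolated 4 weeks later. The virus carried GFP in the 4 control libraries (AAV-GFP) and mouse Trib3 in the other 4 (AAV-Trib3). All libraries, controls included, thus came from virus-injected animals. The promoter of the vectors is not given in the sources used here, and nothing says that each library is a separate mouse, so p-values measure the spread between libraries, which may be technical.

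Mitochondrial DNA is a circle that is read from both strands as long precursor RNAs. Transfer RNAs lie between most of the genes, and their removal frees the individual messengers, which then receive a short poly(A) tail. All 13 messengers encode core subunits of oxidative phosphorylation, the process that gives hepatocytes most of their ATP, and they are translated inside the organelle. Of the 13 genes, 12 lie on the plus strand of chromosome M, and mt-Nd6 alone lies on the minus strand, at chrM:13552-14070. Its messenger is known from human cells to differ from the others in lacking a poly(A) tail or having only a very short one. The libraries were made from RNA enriched on oligo(dT) beads, so a level here depends on the tail as well as on the amount of RNA, and the part of the tail was not tested.

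The strand difference is visible in the sequences of GENCODE M21 (mm10). The start of mt-Nd6 is shown because its base composition is unlike that of the other members, with its first codon in capitals.
mt-Nd6 start, chrM:14026-14070, minus strand: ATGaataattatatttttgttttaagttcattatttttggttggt
Over its full length mt-Nd6 held 28.1% G and 5.97% C, while the other 12 members held 5.88% to 16.1% G and 22.1% to 29.97% C. The first codon was ATG in 9 of 13 members. The exceptions were mt-Nd1 (GTG), mt-Nd2 (ATA), mt-Nd3 (ATT) and mt-Nd5 (ATC).

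Further sequences bear on how reads can be assigned to the members. The genes of mt-Atp8 and mt-Atp6 share 43 bases of the same strand, and mt-Nd4l and mt-Nd4 share 7 (capitals). Each pair is known to be carried on a joint messenger.
mt-Atp8 and mt-Atp6, chrM:7918-7978, plus strand: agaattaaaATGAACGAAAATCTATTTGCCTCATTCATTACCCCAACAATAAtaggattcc
mt-Nd4l and mt-Nd4, chrM:10152-10188, plus strand: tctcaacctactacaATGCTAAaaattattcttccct
The ends of mt-Nd5 and mt-Nd6 overlap by 14 bases on opposite strands (capitals), and the library protocol names no step that keeps strand. Reads from mt-Nd6 and from plus-strand RNA over its antisense side therefore cannot be told apart.
mt-Nd5 end, chrM:13537-13565, plus strand: ttatcttatactcaaTTAATCTCGAGTAA
mt-Nd6 end, chrM:13552-13580, minus strand: ttattattatcgagaTTACTCGAGATTAA
In mt-Nd4, mt-Co3 and mt-Cytb, 3 of 13 members, the annotated gene stops 1 base into its last codon (capital T), and the poly(A) tail supplies the rest of a stop codon.
mt-Nd4 end, chrM:11515-11544, plus strand: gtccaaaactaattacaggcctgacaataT
mt-Co3 end, chrM:9361-9390, plus strand: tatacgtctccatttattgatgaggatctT
mt-Cytb end, chrM:15259-15288, plus strand: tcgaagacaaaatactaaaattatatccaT

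The 13 messengers together took 14.9% to 18.5% of all counts in 7 libraries and 32.0% in the remaining one. In AAV-GFP replicates 1 to 4 they held 16.8%, 32.0%, 16.6% and 14.9% of counts, and in AAV-Trib3 replicates 1 to 4 they held 17.3%, 18.5%, 16.6% and 16.3%. AAV-GFP replicate 2 stood apart from every other library, and the groups overlapped. The means were 20.1% ± 8.02 in AAV-GFP and 17.2% ± 0.958 in AAV-Trib3 (SD, n = 4 each), a difference of −2.88 percentage points. Without AAV-GFP replicate 2 the difference was 1.1 percentage points with the opposite sign, so that library decides its direction. Exact Clopper-Pearson 95% intervals were narrow at this depth, for example 32.0% to 32.1% in AAV-GFP replicate 2, and they cover counting error only. Total counts ran from 11350442 to 15361128 per library. In bulk RNA, fewer cells of a type and less RNA per cell cannot be told apart.

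**Figure D1:**
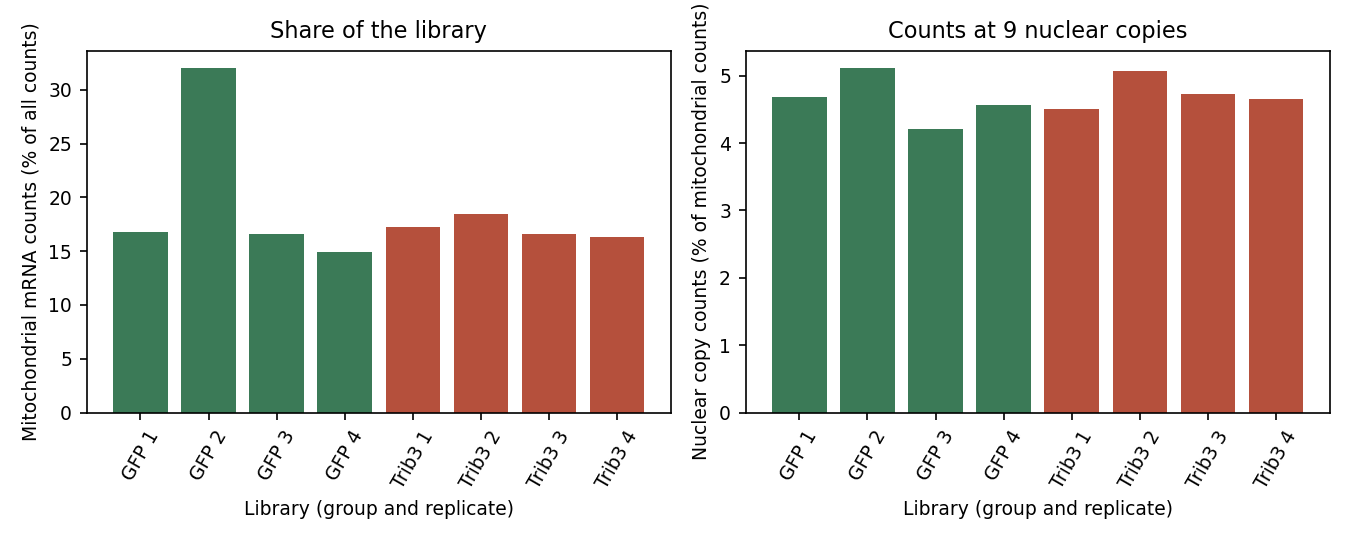
Left, the 13 mitochondrial messengers as a percentage of all counts in each of the 8 libraries; right, counts at 9 nuclear copies of mitochondrial DNA as a percentage of mitochondrial counts. AAV-GFP replicate 2 reaches 32.0% on the left, and the right panel runs from 4.21% to 5.11%.

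The labels were checked with Trib3 and with cell type markers. Trib3 lay between 1.1 and 3.35 CPM (TMM-normalised counts, comparable between libraries) in AAV-GFP and between 20.2 and 67.1 CPM in AAV-Trib3. The 7 measured hepatocyte markers summed to 72694 CPM or more in every library, and the sum was highest in AAV-GFP replicate 2 at 143542 CPM. Most of that sum was Alb, at 107523 CPM. Alb, Apoa1, Ttr and Serpina1a were each highest in that library. Apob and Cps1 were not, and Hnf4a was lowest there, at 554 CPM. Summed levels of 10 macrophage markers ran from 7.79 to 67.7 CPM in AAV-GFP and from 8.57 to 89.3 CPM in AAV-Trib3. Those of 8 endothelial markers ran from 20.1 to 86.4 CPM in AAV-GFP and from 42.1 to 62.6 CPM in AAV-Trib3. The highest sums in any library were 29.9 CPM for 8 stellate cell and fibroblast markers, 28.1 CPM for 5 cholangiocyte markers and 131 CPM for 5 erythroid markers.

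Scaled by length, the members formed a steep and repeatable order of levels. FPKM, the deposited counts scaled by gene length and library total, allow an approximate comparison of levels between genes. Each level is given here as a share of the mitochondrial FPKM sum. Cytochrome c oxidase subunit mt-Co1 was highest at 17.5% ± 0.556 (SD over 8 libraries). The ATP synthase subunits mt-Atp8 and mt-Atp6 followed at 15.1% ± 0.532 and 11.7% ± 0.513. Both lie on a joint messenger, so FPKM differed here within the same RNA, and the order is not one of RNA amounts alone. The cytochrome c oxidase subunits mt-Co2 and mt-Co3 came next at 9.60% ± 0.288 and 8.18% ± 0.385. Each of mt-Co1, mt-Atp8, mt-Atp6 and mt-Co2 lay above the next member of the order in 8 of 8 libraries. The middle of the order was less fixed: mt-Cytb, the complex III subunit, had 7.48% ± 0.531 and lay above mt-Nd2, at 7.27% ± 0.545, in only 4 of 8 libraries.

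The complex I subunits filled the lower end. Shares of FPKM were 6.76% ± 0.350 for mt-Nd4l, 5.94% ± 0.872 for mt-Nd1 and 5.38% ± 0.227 for mt-Nd4. Neighbours in the order differed less at mt-Nd5, 2.58% ± 0.491, which exceeded mt-Nd3, 2.41% ± 0.160, in 5 of 8 libraries. The minus-strand gene mt-Nd6 was far below at 0.0869% ± 0.0480. Among all genes of the table, mt-Co1 ranked 1 by FPKM in every library, while mt-Nd6 ranked between 89 and 419.

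**Figure D2:**
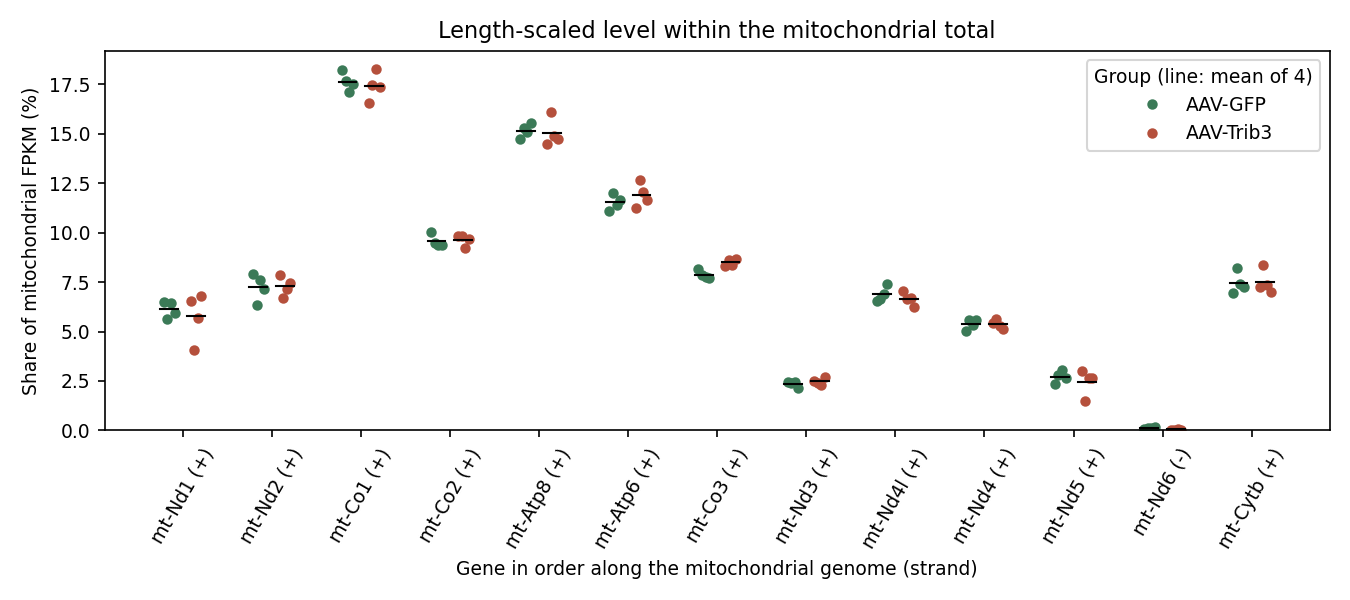
Share of the mitochondrial FPKM sum (%) for the 13 members in order along the genome, with strand in brackets; points are libraries and lines the means of 4. Levels run from 17.5% for mt-Co1 to 0.0869% for mt-Nd6, the only member on the minus strand.

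The question put to the members was whether hepatocytes with raised Trib3 held different amounts of mitochondrial messengers, or a different mix of them. For amounts, edgeR's quasi-likelihood test with TMM scaling was run on all 11036 genes that passed the low-count filter, all 13 members among them. It called 0 genes at a Benjamini-Hochberg adjusted p under 0.05, which is 0.0% of genes tested, and 346 genes (3.14%) at an unadjusted p under 0.05. DESeq2 called 17 of 5900 genes (0.288%) and limma-voom 0. All 13 members had a log2 difference (AAV-Trib3 over AAV-GFP) below 0, against 52.1% of all genes. Their median was −0.44, and that of all genes −0.01.

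That shared direction rested on 1 control library. In AAV-GFP replicate 2, the level of a member in CPM was 2.59-fold (mt-Nd2) to 3.52-fold (mt-Cytb) the mean of the other 3 AAV-GFP libraries. These folds include its TMM factor of 0.700, against 1.05 to 1.15 in the other AAV-GFP libraries. Its mitochondrial share of all counts was 32.0%, against 14.9% to 16.8%. Without AAV-GFP replicate 2, 12 of 13 members had a log2 difference above 0, from 0.04 (mt-Nd1 and mt-Nd5) to 0.30 (mt-Co3). Only mt-Nd6 remained below 0.

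Level differences of single members were as follows. For mt-Nd6 the log2 difference was −1.72 ± 0.44 (SE), with an unadjusted edgeR p of 0.00332 and an adjusted p of 1.00. Without AAV-GFP replicate 2 it was −1.08 ± 0.27. DESeq2 gave mt-Nd6 an adjusted p of 0.0437 and counted it among its 17 calls. The other 12 members lay between −0.61 ± 0.43 (mt-Nd5) and −0.31 ± 0.40 (mt-Co3), and none had an unadjusted edgeR p under 0.05. The groups did not overlap in 2.29% of genes tested, with AAV-Trib3 lower in 1.08% and higher in 1.21%. Among the members this held for 1 of 13, mt-Nd6, which was lower.

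**Figure D3:**
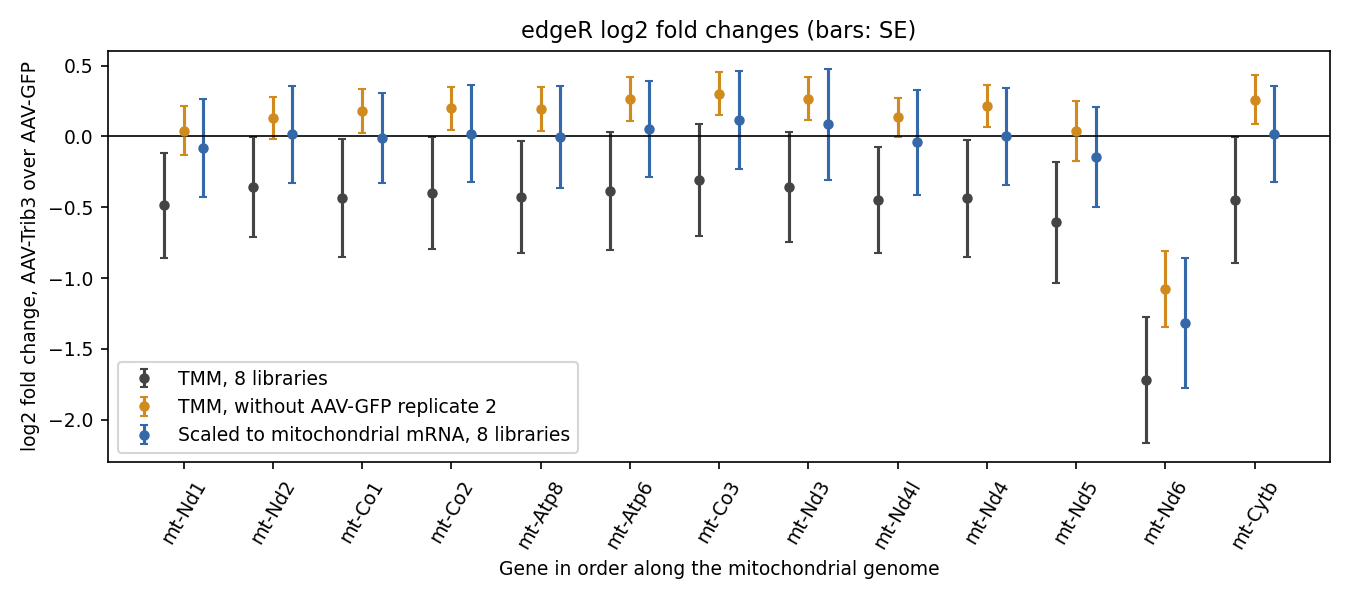
Log2 fold change of AAV-Trib3 over AAV-GFP with its SE from edgeR for each member, under TMM scaling with 8 libraries, under TMM scaling without AAV-GFP replicate 2, and scaled to the mitochondrial messenger total. The first series is below 0 for 13 members, the second for mt-Nd6 alone, and mt-Nd6 is at −1.72, −1.08 and −1.32.

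For the mix of messengers, each member was expressed as a share of the mitochondrial counts of its library, which takes the differing total out of the comparison. On this scale AAV-GFP replicate 2 did not stand apart: 12 of its 13 shares lay within the range of the other 7 libraries, the exception being mt-Nd2. The library whose mix stood apart was AAV-Trib3 replicate 2, with only 5 of 13 shares within the range of the others. It was lowest for mt-Nd1 and mt-Nd5 and highest for mt-Co2, mt-Atp8, mt-Atp6, mt-Co3, mt-Nd4 and mt-Cytb.

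**Figure D4:**
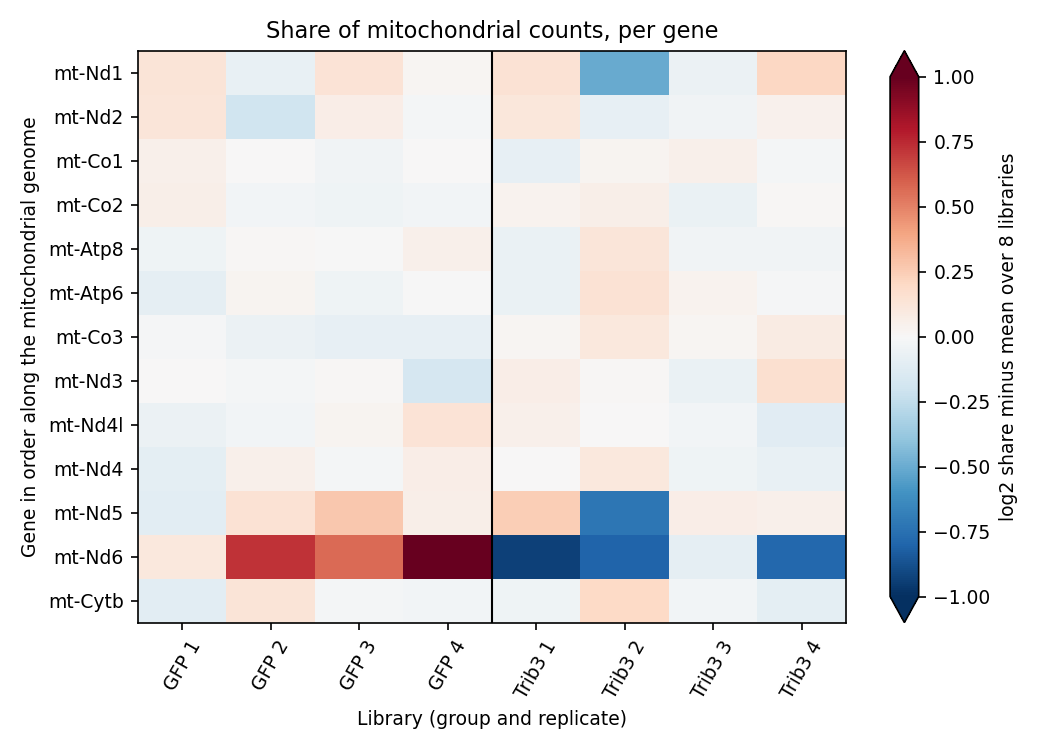
Log2 share of mitochondrial counts for each member (rows, in genome order) and library (columns), minus that member's mean over 8 libraries; colours are limited to 1 either way. The row of mt-Nd6 separates the groups, and AAV-Trib3 replicate 2 is low for mt-Nd1 and mt-Nd5.

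The share of mt-Nd6, a membrane subunit of complex I, was lower in all 4 AAV-Trib3 libraries than in any AAV-GFP library. It was 0.0483%, 0.0741%, 0.0665% and 0.104% of mitochondrial counts in AAV-GFP replicates 1 to 4. In AAV-Trib3 replicates 1 to 4 it was 0.0235%, 0.0258%, 0.0422% and 0.0261%. The nearest libraries of the groups were AAV-GFP replicate 1 and AAV-Trib3 replicate 3. Their 95% intervals ran from 0.0452% to 0.0515% and from 0.0395% to 0.0449%. These intervals cover counting error only, not the spread between libraries. The means were 0.0731% ± 0.0230 and 0.0294% ± 0.0086 (SD, n = 4 each), and the AAV-Trib3 mean was 0.402 of the AAV-GFP mean. These shares rested on 921, 3380, 1431 and 2199 counts in AAV-GFP and on 623, 655, 946 and 593 counts in AAV-Trib3.

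The share of mt-Co3, a core subunit of cytochrome c oxidase, was higher in all 4 AAV-Trib3 libraries, by a much smaller amount. It was 7.25%, 6.99%, 6.89% and 6.89% in AAV-GFP replicates 1 to 4 and 7.39%, 7.86%, 7.40% and 7.74% in AAV-Trib3 replicates 1 to 4. The means were 7.003% ± 0.169 and 7.60% ± 0.235, and the ratio of the means was 1.08. The nearest libraries of the groups were AAV-GFP replicate 1 and AAV-Trib3 replicate 1.

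For the other 11 members the groups overlapped. The shares were planned as a description. An exact two-sided permutation test of each share, added to it, gave p = 0.0286 for mt-Nd6 and for mt-Co3, the smallest that 4 against 4 libraries allow, and p from 0.257 to 1.00 for the other 11. Groups of 4 libraries that do not overlap always give this smallest p, so for mt-Nd6 and mt-Co3 it only restates the separation. These p-values are unadjusted, and the 13 shares of a library are not independent because they sum to a fixed total. Leaving out 1 library cannot make separated groups overlap, so such repeats say nothing further about mt-Nd6 and mt-Co3. The separation was also present with shares of FPKM, which are the same counts over fixed gene lengths and so are not independent evidence.

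**Figure D5:**
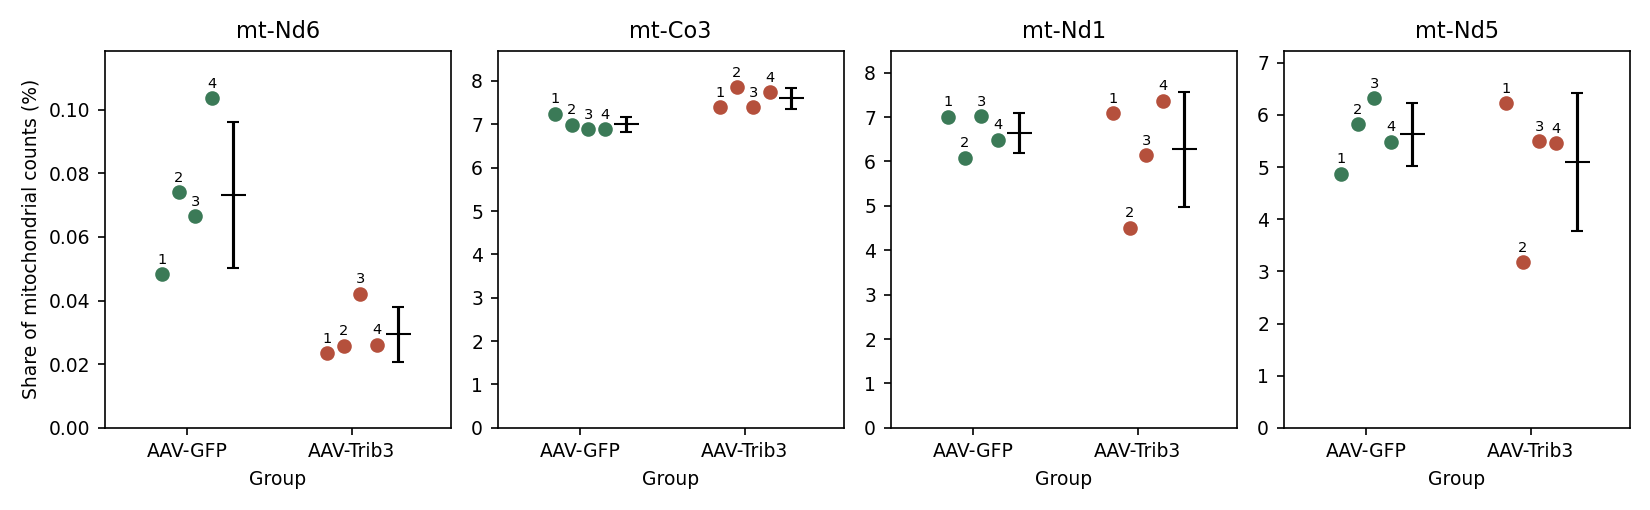
Share of mitochondrial counts (%) for mt-Nd6, mt-Co3, mt-Nd1 and mt-Nd5; points are libraries numbered by replicate, and bars beside them the mean ± SD of 4. The groups do not overlap for mt-Nd6 and mt-Co3, and AAV-Trib3 replicate 2 is the lowest point for mt-Nd1 and mt-Nd5.

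An edgeR fit over all 11036 genes with the mitochondrial messenger total as library size gave wide errors for the members. It called 9 genes (0.0816%), and 0 of 13 members. At an unadjusted p under 0.05 it listed 1.42% of genes and 1 member, mt-Nd6. Of the members 7 were below 0, against 34.1% of all genes. The log2 difference of mt-Nd6 was −1.32 ± 0.46 (SE), with an unadjusted p of 0.0042 and an adjusted p of 1.00. The other 12 lay between −0.14 (mt-Nd5) and 0.12 (mt-Co3, unadjusted p = 0.733), with SEs of 0.32 to 0.39. Without AAV-GFP replicate 2 the SEs of these 12 were 0.12 to 0.22, and with robust estimation off 0.17 to 0.33. The SD of the log2 share of mt-Co3 was 0.034 in AAV-GFP and 0.045 in AAV-Trib3. On this scale 0.0453% of all genes had groups that did not overlap with AAV-Trib3 lower, mt-Nd6 among them, and 0.507% with AAV-Trib3 higher, mt-Co3 among them. These shares of all genes, and the 34.1% above, depend on the scaling itself. AAV-GFP replicate 2 had 0.471 mitochondrial counts per nuclear count, and the other libraries 0.175 to 0.227. The scaling thus lowers nuclear genes in that library, so few can be lower in every AAV-Trib3 library. The shares are therefore no measure of how rare the separation of a member is.

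The other complex I members varied more between libraries than between groups. Shares of mt-Nd5 were 4.87%, 5.82%, 6.32% and 5.48% in AAV-GFP and 6.23%, 3.18%, 5.50% and 5.45% in AAV-Trib3. Shares of mt-Nd1 were 7.004%, 6.08%, 7.02% and 6.49% in AAV-GFP and 7.09%, 4.51%, 6.14% and 7.37% in AAV-Trib3. In both genes AAV-Trib3 replicate 2 was low and the rest overlapped. The share of mt-Nd2 was 9.29%, 7.47%, 8.97% and 8.45% in AAV-GFP and 9.24%, 8.09%, 8.36% and 8.81% in AAV-Trib3. The share of mt-Nd3 was 0.956%, 0.941%, 0.963% and 0.848% against 0.997%, 0.961%, 0.908% and 1.06%. Both overlapped between groups. The joint messenger of mt-Nd4l and mt-Nd4 gave shares of 2.32% ± 0.142 and 2.25% ± 0.109 for mt-Nd4l (AAV-GFP and AAV-Trib3) and of 8.43% ± 0.438 and 8.43% ± 0.446 for mt-Nd4.

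Members of the other complexes other than mt-Co3 had overlapping shares. The largest single share of counts was that of mt-Co1, with 31.8%, 30.9%, 29.99% and 30.9% in AAV-GFP and 29.1%, 31.3%, 31.9% and 30.4% in AAV-Trib3. For mt-Co2 the shares were 7.42% ± 0.241 and 7.52% ± 0.283. For mt-Cytb, the only complex III subunit of the mitochondrial genome, they were 9.68% ± 0.683 and 9.79% ± 0.918. For mt-Atp6 they were 8.92% ± 0.310 and 9.24% ± 0.568, and for mt-Atp8 3.51% ± 0.0935 and 3.498% ± 0.212. Summed by complex, the 7 complex I members held 32.6% ± 1.095 and 31.7% ± 2.70 of mitochondrial counts, and the 3 cytochrome c oxidase members 45.3% ± 1.11 and 45.8% ± 1.23. The ATP synthase members held 12.4% ± 0.386 and 12.7% ± 0.773. All of these groups overlapped.

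Ratios between neighbouring genes compare members without any library total. In AAV-GFP replicates 1 to 4 there were 9.91, 12.7, 10.5 and 18.9 mt-Nd6 counts per 1000 counts of mt-Nd5, its neighbour on the opposite strand. In AAV-Trib3 replicates 1 to 4 there were 3.77, 8.13, 7.67 and 4.79. The groups did not overlap, and the mean log2 ratio differed by −1.12 (exact two-sided permutation test, p = 0.0286, adjusted p = 0.0571 over 4 ratios); this p is the smallest that the 70 relabellings of 4 against 4 libraries allow. Per 1000 counts of mt-Cytb, the neighbour on the other side, there were 5.36, 6.97, 6.95 and 10.9 mt-Nd6 counts in AAV-GFP and 2.49, 2.32, 4.43 and 2.88 in AAV-Trib3. These did not overlap either, with a log2 difference of −1.32 (exact permutation p = 0.0286, adjusted p = 0.0571). After adjustment neither ratio passed 0.05. Both ratios rest on the same mt-Nd6 counts as the share of mt-Nd6, so they are not independent evidence. Without AAV-GFP replicate 4, the exact permutation p was 0.0857 for the ratio to mt-Nd5 and 0.0571 for the ratio to mt-Cytb. Without AAV-GFP replicate 2 the exact permutation p was 0.0571 for both ratios. Without AAV-GFP replicate 3 it was 0.0286 for the ratio to mt-Nd5 and 0.0571 for the ratio to mt-Cytb. Leaving out any other library gave 0.0286 for both. The groups stayed apart in each of these repeats. With groups of unequal size, relabellings of the opposite sign can reach the observed difference, so a larger p here does not mean overlap.

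Ratios within the joint messengers were tight. There were 39.8, 38.1, 39.6 and 40.0 mt-Atp8 counts per 100 counts of mt-Atp6 in AAV-GFP and 38.6, 38.1, 36.9 and 37.9 in AAV-Trib3 (log2 difference −0.06, exact permutation p = 0.0857, adjusted p = 0.114). Counts of mt-Nd4l per 100 counts of mt-Nd4 were 27.9, 25.6, 28.04 and 28.5 in AAV-GFP and 28.01, 25.3, 27.3 and 26.3 in AAV-Trib3 (log2 difference −0.04, exact permutation p = 0.371, adjusted p = 0.371). Both sets overlapped between groups. Without AAV-GFP replicate 2 the mt-Atp8 ratio no longer overlapped (log2 difference −0.07, exact permutation p = 0.0286, adjusted p = 0.0762), and the log2 difference of the mt-Nd4l ratio was −0.08 (exact permutation p = 0.114).

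Immediate-early genes, which respond within minutes to cell isolation, had log2 differences of the same sign as mt-Nd6. Their 11 listed members summed to 1196, 607, 751 and 1837 CPM in AAV-GFP replicates 1 to 4 and to 445, 531, 620 and 444 CPM in AAV-Trib3. The groups overlapped through AAV-GFP replicate 2 and AAV-Trib3 replicate 3. Of 10 tested, 10 had a log2 difference below 0, against 52.1% of all genes, with a median of −1.25, and 7 had an unadjusted p under 0.05 but 0 were called by edgeR. DESeq2 called 2 of the 8 to which it gave an adjusted p, Egr1 and Ier2, and limma-voom called 0. AAV-GFP replicate 4 was highest and AAV-Trib3 replicate 3 the highest of its group both here and for the share of mt-Nd6, whereas AAV-GFP replicate 1 was second here and lowest of its group for mt-Nd6. The part of this difference in the mt-Nd6 result was not tested.

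Parts of the mitochondrial genome also exist as copies in nuclear chromosomes, and reads from the organelle can be counted at them. The table held 9 such pseudogenes, 6 on chromosome 1 and 3 on chromosome 2, and 4 of them were identical in sequence to a stretch of a member. They were Gm10925 (mt-Atp6, chr1:24613974-24614651), Gm28437 (mt-Co3, chr1:24613189-24613971), Gm28661 (mt-Co2, chr1:24614885-24615565) and Gm28439 (mt-Nd4, chr1:24611535-24612410), all on the minus strand. The copy of mt-Nd3, Gm28438, differed at 1 base, T3C counted from the gene's start with the member's base first. Its start is shown beside that of mt-Nd3, with the differing base in capitals.
mt-Nd3 start, chrM:9459-9488, plus strand: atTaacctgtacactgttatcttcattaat
Gm28438 start, chr1:24613090-24613119, minus strand: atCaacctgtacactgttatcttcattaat

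Counts at the copies followed the members. Together the 9 copies held 4.68%, 5.11%, 4.21% and 4.57% as many counts as the 13 members in AAV-GFP and 4.51%, 5.08%, 4.72% and 4.65% in AAV-Trib3. The groups overlapped, and the share was highest in AAV-GFP replicate 2, the library with the raised mitochondrial total. Counts at Gm10925 were 12.2% to 14.5% of those of mt-Atp6, and counts at Gm28437 11.9% to 13.95% of those of mt-Co3. Counts at Gm28661 were 10.8% to 12.6% of those of mt-Co2, and counts at Gm28439 7.64% to 8.80% of those of mt-Nd4. Counts at Gm28438 were 9.18% to 10.5% of those of mt-Nd3. A copy of part of mt-Co1 on chromosome 1, with 1 differing base, held 1.90% to 2.36% as many counts as mt-Co1. The treatment of reads that match both places is not known here, so the counts of these members are uncertain. The percentages do not give the size of that uncertainty, since reads may also have been left out. No annotated copy on chromosome 1 was listed for mt-Nd1, mt-Nd2, mt-Atp8, mt-Nd4l, mt-Nd5, mt-Nd6 or mt-Cytb, apart from bases shared with overlapping genes. Only listed pseudogenes were aligned, so copies of these genes without an annotated pseudogene were not looked for. Read along the minus strand, the chromosome 1 copies follow the order of the mitochondrial genes. On chrM, mt-Atp8 lies between mt-Co2 and mt-Atp6, and mt-Nd4l between mt-Nd3 and mt-Nd4. The stretches between the copies of these genes were not aligned, so the counts and ratios of mt-Atp8 and mt-Nd4l may be uncertain too. With the copies added to the genes they copy, the share of mt-Co3 was still higher and that of mt-Nd6 still lower in every AAV-Trib3 library.

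Nuclear genes that make or process mitochondrial RNA were not called. Of 52 listed genes for mitochondrial transcription, replication and RNA processing, 46 were tested. None was called by edgeR or limma-voom, or by DESeq2 among the 25 to which it gave an adjusted p. In edgeR 2 had an unadjusted p under 0.05, and 16 were above and 30 below 0, with a median log2 difference of −0.05. The smallest p belonged to Tbrg4 (FASTKD4), an RNA-binding protein that stabilises some mitochondrial messengers. It had 22.4, 22.3, 24.7 and 13.1 CPM in AAV-GFP and 14.4, 14.9, 15.1 and 15.04 CPM in AAV-Trib3, a log2 difference of −0.47 ± 0.19 (SE, edgeR adjusted p = 1.00). AAV-GFP replicate 4 lay below the AAV-Trib3 libraries and the other 3 above them. The mitochondrial topoisomerase Top1mt had a log2 difference of −0.33 ± 0.13, and Elac2, which cuts transfer RNA 3' ends from the precursor, −0.29 ± 0.14.

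Regulators and nuclear partners gave 0 calls in edgeR and limma-voom, and 0 in DESeq2 among the 5 regulators and 27 partners to which it gave an adjusted p. Of 12 transcription regulators of mitochondrial biogenesis, 7 were above and 5 below 0, with a median of 0.06 and 1 unadjusted p under 0.05. That gene was Pprc1, a coactivator related to PGC-1α, at −0.64 ± 0.26, and the nuclear receptor Esrra followed at 0.30 ± 0.15. Of 28 nuclear-encoded core respiratory chain subunits, 21 were above and 7 below 0, with a median of 0.09, and 0 had an unadjusted p under 0.05.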

How the data were processed

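Poly(A)-selected RNA of 8 mouse hepatocyte libraries was analysed from the authors' gene table, which holds deposited whole-number counts and deposited FPKM, per the file headers. The deposited FPKM equal counts over gene length and library total. Trimmomatic and mm10 are named in the submitters' processing notes; how reads were aligned and counted, and where reads matching several places went, is not given in the sources used here. Groups came from the sample titles. Counts were tested with edgeR 4.0.16 (filterByExpr, TMM, robust quasi-likelihood F test, Benjamini-Hochberg adjustment, threshold 0.05), fitted on all genes and again with the mitochondrial total as library size. DESeq2 1.42.0 and limma-voom (limma 3.58.1) were alternatives, run in R 4.3.3. Ratios, and later the shares, were compared with exact permutation tests. Nuclear copies were aligned with blastn 2.17.0. The fits were also run on simulated data in which no member was changed and no library had a raised mitochondrial total. Those runs say nothing on either case. Total counts were 11350442 to 15361128. Every member is named; up to 6 processing genes and 4 regulators and copies were named by smallest p or most counts, and Gm28438 was named after its values were seen. The members and lists were chosen with earlier results of these data known.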

Additional observations from a re-analysis of the deposited data

Results flagged for a closer look

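Within groups of 4 libraries, 4 values lay far from the other 3 by Dixon's test at the 95% level, out of 40 groups tested; chance flags about 1 in 20 groups. The mitochondrial share of counts in AAV-GFP replicate 2 was 32.0%. The mt-Co2 share of mitochondrial counts in AAV-GFP replicate 1 was 7.78%. The mt-Atp8 share in AAV-Trib3 replicate 2 was 3.81%. The mt-Nd6 share in AAV-Trib3 replicate 3 was 0.0422%, the highest of its group.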

How the results depend on the processing

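The number of genes called under TMM scaling was 0 with edgeR. It was 17 with DESeq2, 15 with DESeq2 and no low-count filter, 7 with DESeq2 without independent filtering, 1 at an adjusted p of 0.1, and 0 to 3 when 1 library was left out. DESeq2 without independent filtering gave mt-Nd6 an adjusted p of 0.0701. Scaled to the mitochondrial total, 9 genes were called; this was 16 without robust estimation, 2 with DESeq2, and 0 (without AAV-GFP replicate 2) to 11 when 1 library was left out. The cause was not tested. The mitochondrial share of counts differed by −4.61 to 1.1 percentage points when 1 library was left out.

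When 1 library was left out, TMM-scaled log2 differences ran from −0.68 to 0.040 for mt-Nd1, −0.54 to 0.13 for mt-Nd2, −0.63 to 0.18 for mt-Co1, −0.60 to 0.20 for mt-Co2, −0.61 to 0.19 for mt-Atp8, −0.58 to 0.26 for mt-Atp6, −0.51 to 0.30 for mt-Co3, −0.57 to 0.27 for mt-Nd3, −0.62 to 0.14 for mt-Nd4l, −0.62 to 0.21 for mt-Nd4, −0.81 to 0.041 for mt-Nd5 and −0.66 to 0.26 for mt-Cytb. Each turned positive only without AAV-GFP replicate 2. Scaled to the mitochondrial total, ranges were −0.17 to 0.046 for mt-Nd1, −0.046 to 0.056 for mt-Nd2, −0.030 to 0.014 for mt-Co1, −0.048 to 0.016 for mt-Atp8, −0.035 to 0.023 for mt-Nd4, −0.26 to 0.026 for mt-Nd5 and −0.052 to 0.064 for mt-Cytb. The log2 difference of mt-Nd6 stayed between −1.96 and −1.08 under TMM and between −1.54 and −1.10 on the mitochondrial scale.

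Replicate numbers did not pair the libraries (correlations of −0.27, −0.13, −0.15 and −0.03). With the replicate block, 0 genes were called under TMM scaling and 3 on the mitochondrial scale, and sign flips of the mt-Nd6 ratios gave an exact p of 0.125, the smallest that 4 pairs allow. Of 6 ratios planned, the 2 with ribosomal RNA were not run. Totals with ribosomal and transfer RNA set against messenger totals were not run either, since only messengers were analysed here. Adding nuclear copies, the DESeq2 fit on the mitochondrial scale and both further DESeq2 settings were chosen after seeing the data.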
